A study of Mus musculus with 6 samples.

Results

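The 36 genes described here encode proteins that sense broken or mismatched DNA, halt the cell cycle, and repair the damage in Ba/F3 cells with and without the TPR-FGFR1 fusion. They were taken by name (homologous recombination, the Fanconi anaemia pathway, mismatch repair, end joining, checkpoint kinases and their partners) from a table of 57010 mouse gene IDs, by a rule that uses no measured value, although earlier results of these data were known when it was set. All 36 names were found in the GENCODE M21 annotation, and all 36 passed the filter on low values, a mean of at least 1 TPM (a transcript level scaled by transcript length and by the library's total). Ba/F3 is a mouse line of blood origin that grows in response to interleukin-3 and is widely used to test whether a kinase can drive growth. The TPR-FGFR1 group (3 libraries) is labelled as Baf3 with overexpression of the TPR-FGFR1 fusion, made by lentiviral infection and 6 days in puromycin at 5 µg/ml. The empty vector group (3 libraries) is labelled as Baf3 of WT genotype with an empty vector, and the puromycin step is described for the fusion cells alone. Cells of both groups come from the same line and are labelled as B lymphocytes. No label says whether the lines were pools or clones, whether interleukin-3 was present, or whether libraries of a group came from separate cultures, so a p-value here speaks only of spread among these libraries, and that spread may be technical.

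Repair of broken DNA is shared among several systems. Homologous recombination copies the intact sister chromatid after DNA replication, end joining ligates broken ends directly at any time of the cell cycle, the Fanconi anaemia pathway removes crosslinks between strands, and mismatch repair corrects copying errors. ATM and ATR are the kinases at the head of the response, and they act through CHK2 and CHK1 to stop division. In dividing cells many breaks arise at replication forks, and many of these genes are transcribed most strongly as cells enter DNA synthesis.

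The deposited values are TPM, so read depth is unknown, and 12679 to 12839 genes reached 1 TPM in each library. Fgfr1, the mouse gene that matches the kinase part of the fusion, stood at 0.7, 0.58 and 1.26 TPM in the TPR-FGFR1 libraries, against 0.02, 0.04 and 0.05 TPM in the empty vector libraries, so the groups did not overlap (two-sided exact permutation p = 0.1, the smallest that 3 against 3 allows). Tpr, the gene of the other fusion partner, stood at 142.94, 145.05 and 124.99 TPM with the fusion, against 144.17, 155.21 and 143.67 TPM with the empty vector, and its groups overlapped. The labels do not say whether the fusion cDNA is human or mouse, so values of these mouse genes give no level of the fusion. TPR-FGFR1 replicate 3 stood apart from its group. Its levels over 12862 tested genes correlated at r = 0.9635 and 0.962 with TPR-FGFR1 replicates 1 and 2, and at 0.9657 to 0.9661 with the empty vector libraries. Of 12 B-lineage markers only Cd79b passed the filter, and Rag1 and Rag2 were listed at 0 in every library, while the leukocyte marker Ptprc stood at 203 TPM with the fusion and 172 TPM with the empty vector. Of the 8 haematopoietic markers that include Ptprc, 6 passed the filter, and Kit was at 0 in every library. Ptprc was the only 1 of these 6 that was higher with the fusion, and their median log2 difference (TPR-FGFR1 minus empty vector) was −0.55. Markers of fibroblasts and epithelium summed to at most 0.09 TPM in TPR-FGFR1 libraries and 0.68 TPM in empty vector libraries.

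Of the 36 members, 6 differed between the groups. Blm and Wrn, which encode RecQ helicases that unwind recombination intermediates, Chek2, the gene of the checkpoint kinase CHK2, Pms2, a mismatch repair gene, and Lig3, the gene of DNA ligase III, were called higher. Fancl, the gene of the Fanconi ubiquitin ligase, was called lower. Calls rest on limma, fitted to log2(TPM + 1) of all tested genes, with a threshold of 0.05 on the adjusted p, and fold changes on this scale understate the change of low genes. Of 36 members, 5 were called higher, where 10.2% of all tested genes were, and 1 was called lower, where 10% were. In either direction the background was 20.2%, so 6 of 36 is a share near that of any genes. The median log2 difference (TPR-FGFR1 minus empty vector) was 0.06 for the members and 0.02 for all tested genes, and the members ran from −0.44 to 0.59. The groups did not overlap for 9 members that were higher with the fusion (22.6% of all tested genes) and 4 that were lower (20.8%). A lower value in such bulk libraries cannot tell fewer expressing cells from less RNA per cell.

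**Figure D1:**
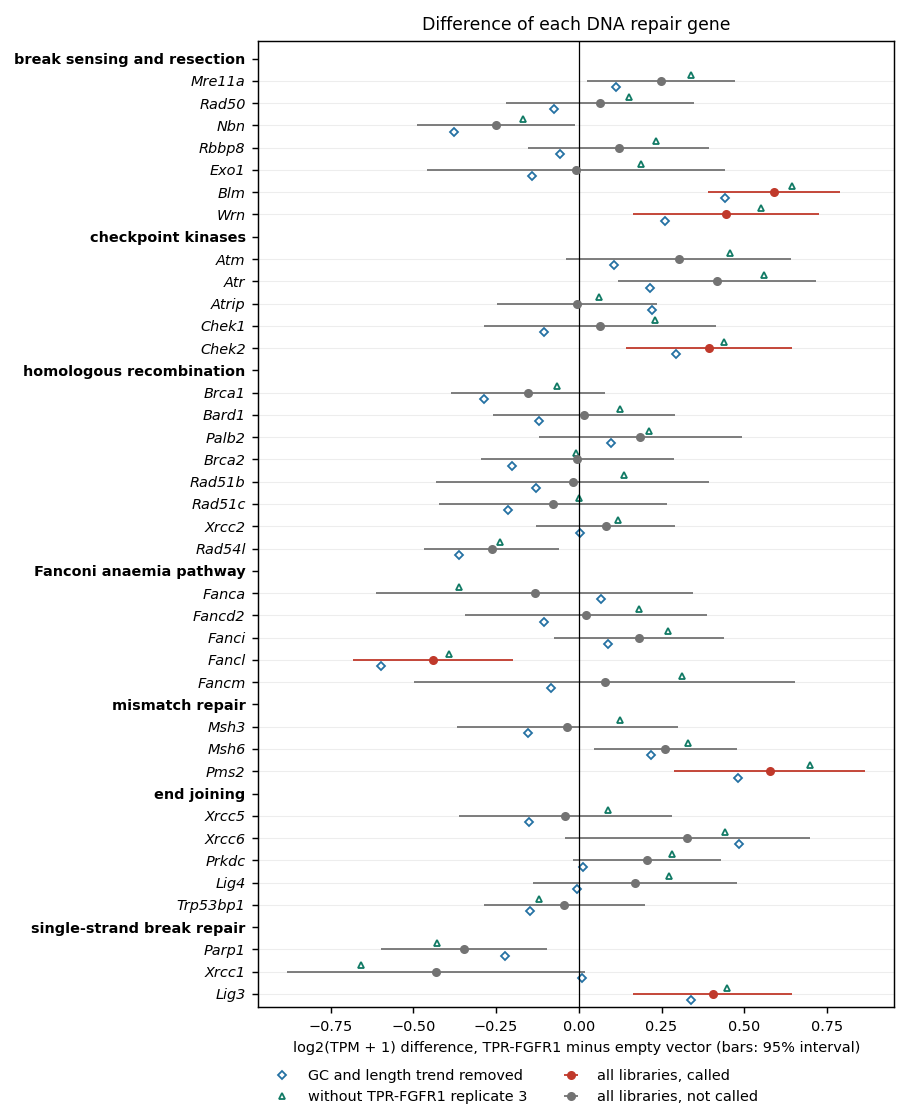
Difference in log2(TPM + 1), TPR-FGFR1 minus empty vector, for the 36 repair genes by role (3 libraries per group). Circles with bars are the estimates from all libraries with 95% intervals, in red where called, diamonds the estimates after a trend over GC content and length was removed, and triangles those without TPR-FGFR1 replicate 3. Blm (0.59) and Pms2 (0.58) lie furthest to the right and Fancl (−0.44) furthest to the left.

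Promoter windows of the called members are shown because these are the genes that differed. Each is a RefSeq window on GRCm38.p6, from 250 bases before to 50 bases after the annotated start, printed 5′ to 3′ along the gene's strand. Capitals mark matches to the motifs searched on both strands, which were E2F (TTTCCCGC, TTTCGCGC, TTTGCCGC or TTTGGCGC), ETS (CCGGAAGT), the CCAAT box (CCAAT) and the cell cycle element CHR (TTTGAA).
Blm, chr7:80534949-80535248, minus strand: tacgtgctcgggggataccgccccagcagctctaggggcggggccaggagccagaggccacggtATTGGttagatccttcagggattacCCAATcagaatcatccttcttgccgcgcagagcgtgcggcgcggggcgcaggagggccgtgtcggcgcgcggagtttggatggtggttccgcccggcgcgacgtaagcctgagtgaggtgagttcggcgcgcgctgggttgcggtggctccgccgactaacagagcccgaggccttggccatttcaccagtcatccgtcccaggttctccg
Chek2, chr5:110839733-110840032, plus strand: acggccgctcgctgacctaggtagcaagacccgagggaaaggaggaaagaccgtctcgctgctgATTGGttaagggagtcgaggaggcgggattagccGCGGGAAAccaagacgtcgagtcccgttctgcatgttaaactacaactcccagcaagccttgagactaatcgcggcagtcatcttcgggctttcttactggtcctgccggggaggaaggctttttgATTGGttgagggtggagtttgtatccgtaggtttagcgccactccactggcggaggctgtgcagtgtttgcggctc
Pms2, chr5:143909751-143910050, plus strand: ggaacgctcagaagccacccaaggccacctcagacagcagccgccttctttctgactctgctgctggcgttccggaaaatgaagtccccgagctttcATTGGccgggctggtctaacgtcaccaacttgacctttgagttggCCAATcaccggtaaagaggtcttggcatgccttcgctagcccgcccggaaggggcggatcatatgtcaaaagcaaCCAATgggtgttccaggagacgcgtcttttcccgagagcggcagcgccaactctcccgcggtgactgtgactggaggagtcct
Lig3, chr11:82780859-82781158, plus strand: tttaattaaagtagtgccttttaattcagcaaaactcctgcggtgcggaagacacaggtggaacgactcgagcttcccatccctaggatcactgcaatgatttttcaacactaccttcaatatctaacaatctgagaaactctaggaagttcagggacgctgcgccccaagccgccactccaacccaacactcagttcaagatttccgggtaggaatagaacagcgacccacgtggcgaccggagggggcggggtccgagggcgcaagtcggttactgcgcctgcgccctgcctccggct
Fancl, chr11:26386834-26387133, plus strand: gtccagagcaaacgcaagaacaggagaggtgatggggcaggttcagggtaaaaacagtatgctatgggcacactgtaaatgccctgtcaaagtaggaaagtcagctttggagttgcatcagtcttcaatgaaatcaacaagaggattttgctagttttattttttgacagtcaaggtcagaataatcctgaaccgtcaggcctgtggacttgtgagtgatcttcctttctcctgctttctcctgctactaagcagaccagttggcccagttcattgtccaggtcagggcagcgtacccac

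Windows were held for 28 of the 36 members, with Exo1, Fancd2, Nbn, Prkdc, Rad50, Rbbp8, Wrn and Xrcc2 not matched. Blm and Chek2 each had 2 CCAAT boxes and Pms2 had 3, while the Lig3 and Fancl windows had 0 matches to any of these motifs. Over the 28 members, 57.1% had a CCAAT box, against 39.7% of 8746 tested genes with a window and 37.9% of all 27025 windows of 1 per gene. An E2F match was present in 25.0% of the members, against 4.41% of tested genes and 2.32% of all windows. Of the 5 called members with a window only Chek2 had one, and the others with one were Bard1, Brca2, Msh3, Msh6, Rad51c and Xrcc6. An ETS match was present in 7.14% of the members and 9.57% of tested genes, and a CHR match in 3.57% and 12.8%. A match is a description of letters and says nothing about binding.

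Of the 7 members for break sensing and end resection, Blm and Wrn rose. Blm (ENSMUSG00000030528) stood at 67.16, 68.96 and 60.67 TPM in the TPR-FGFR1 libraries, against 40.56, 43.79 and 45.4 TPM in the empty vector libraries. Every fusion library was above every empty vector library by a wide gap. Its means were 65.6 ± 4.36 TPM with the fusion and 43.2 ± 2.46 TPM with the empty vector (SD, n = 3 each), a ratio of 1.52, with a log2 difference of 0.59 (SE 0.0842, limma adjusted p = 0.00976). Blm was called in 18 of 20 alternative settings, and its adjusted p was 0.0533 without TPR-FGFR1 replicate 1 and 0.0542 without empty vector replicate 2. Wrn (ENSMUSG00000031583), the gene lost in Werner syndrome, stood at 28.62, 29.84 and 23.28 TPM with the fusion, against 18.01, 19.53 and 21.55 TPM with the empty vector. The lowest fusion library, replicate 3, was close to the highest empty vector library. The log2 difference of Wrn was 0.44 (SE 0.119, limma adjusted p = 0.0419), and it was 0.26 (adjusted p = 0.0235) after the trend over GC content and length was removed. Wrn was no longer called without any 1 of the libraries other than TPR-FGFR1 replicate 3, with adjusted p from 0.0833 to 0.141.

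The MRN complex, which binds broken ends and activates ATM, had 0 of 3 members called, against 20.2% of all tested genes in either direction. Mre11a, its nuclease gene, stood at 87.76, 85.79 and 71.6 TPM with the fusion, against 69.47, 67.27 and 68.34 TPM with the empty vector. The groups did not overlap, yet the log2 difference of 0.25 (95% interval 0.03 to 0.47) did not pass the test (limma adjusted p = 0.101). Nbn, the gene of the ATM-recruiting subunit NBS1, lay on the other side. It stood at 18.03, 17.77 and 14.97 TPM in fusion libraries and 18.77, 20.75 and 21.28 TPM in empty vector libraries, with a log2 difference of −0.25 (limma adjusted p = 0.116). After removal of the GC and length trend Nbn was called lower, at −0.38 (adjusted p = 0.00323). Rad50, the ATPase gene of the complex, had overlapping groups of 30.2 to 37.97 TPM with the fusion and 29.31 to 36.9 TPM with the empty vector. Rbbp8, which encodes the resection factor CtIP, and Exo1, an exonuclease gene, also overlapped, with log2 differences of 0.12 and −0.01. The interval for Exo1 ran from −0.46 to 0.44.

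**Figure D2:**
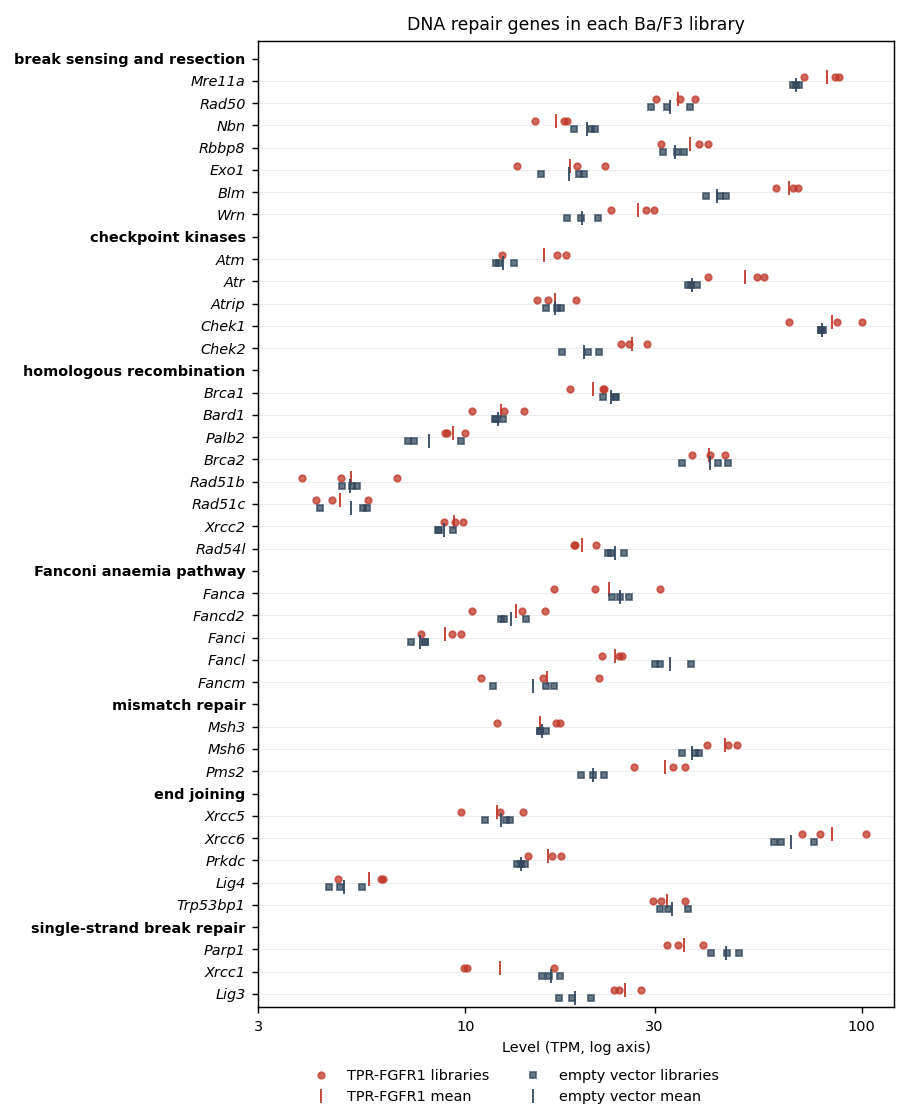
Level of the 36 repair genes in each library, in TPM on a log axis, grouped by role. Circles are TPR-FGFR1 libraries, squares empty vector libraries, and upright ticks the group means. The TPR-FGFR1 and empty vector points are apart for Blm and Pms2 and interleaved for most homologous recombination genes.

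Of the checkpoint kinases, Chek2 alone was called. CHK2 is the kinase that ATM activates at broken ends, and Chek2 (ENSMUSG00000029521) stood at 28.7, 25.79 and 24.63 TPM with the fusion, against 17.56, 21.71 and 20.37 TPM with the empty vector. The groups did not overlap, and the log2 difference was 0.39 (SE 0.106, limma adjusted p = 0.0429). Chek2 was called without TPR-FGFR1 replicate 3 (0.0172) and not without any other library (0.0888 to 0.146), nor with the GC and length trend removed and replicate 3 left out (0.0525). Atr, the gene of the kinase that answers stalled replication forks, stood at 54.3, 56.52 and 41.03 TPM with the fusion, against 37.13, 36.36 and 38.34 TPM with the empty vector. The groups did not overlap, and its log2 difference of 0.42 (95% interval 0.12 to 0.72) just missed the threshold (limma adjusted p = 0.0583). Atr was called higher after removal of the GC and length trend (0.21, adjusted p = 0.0249) and without TPR-FGFR1 replicate 3 (0.56, adjusted p = 0.00107). Atrip, which encodes the partner that brings ATR to single-stranded DNA, had a log2 difference of −0.0047 (limma adjusted p = 0.978). Its exons share 16.0% of their bases with Trex1 on the same strand, so reads could be split between these genes.

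For Atm and Chek1 TPR-FGFR1 replicate 3 lay apart from replicates 1 and 2. Atm, the gene of the apical kinase at broken ends, stood at 17.02, 17.9 and 12.33 TPM with the fusion, against 12.13, 13.26 and 11.96 TPM with the empty vector. Replicates 1 and 2 were above, and replicate 3 inside, the empty vector range. Its log2 difference was 0.30 (limma adjusted p = 0.163), and 0.46 (adjusted p = 0.00434) without replicate 3. Chek1, which encodes the effector of ATR and had the highest mean level of the 36 genes in both groups, stood at 86.63, 100.12 and 65.58 TPM with the fusion, against 78.78, 79.16 and 79.91 TPM with the empty vector. Replicate 3 lay below all empty vector libraries while replicates 1 and 2 lay above them. The log2 difference of Chek1 was 0.06 (limma adjusted p = 0.774), and 0.23 (adjusted p = 0.0381) without replicate 3. With the GC and length trend removed as well, neither was called without replicate 3, Atm at 0.17 (adjusted p = 0.0893) and Chek1 at −0.03 (adjusted p = 0.736).

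In homologous recombination, 0 of 8 members were called, where 20.2% of all tested genes were called in either direction. With 8 genes, this is no result about the branch as a whole. These genes encode the BRCA1 to PALB2 to BRCA2 chain, which prepares resected DNA for the search for an intact copy, the paralog proteins of Rad51b, Rad51c and Xrcc2, and the motor protein RAD54. Their median log2 difference was −0.01. Rad54l, the gene of RAD54, stood at 21.3, 18.79 and 18.92 TPM with the fusion, against 23.35, 22.85 and 25.18 TPM with the empty vector. It was the 1 member of this branch whose groups did not overlap, with a log2 difference of −0.26 (95% interval −0.47 to −0.06, limma adjusted p = 0.0707). Exons of Rad54l share 15.4% of their bases with Lrrc41 on the opposite strand. Brca1 stood at 22.35, 22.19 and 18.4 TPM with the fusion, against 22.26, 23.85 and 23.96 TPM with the empty vector, with a log2 difference of −0.15 (limma adjusted p = 0.285). After removal of the GC and length trend Brca1 and Rad54l were both called lower, at −0.29 (adjusted p = 0.00544) and −0.36 (adjusted p = 0.00844). Brca2 had means of 41.3 ± 4 TPM with the fusion and 41.5 ± 5.62 TPM with the empty vector (SD, n = 3 each), and its 95% interval was −0.30 to 0.29. Bard1, the partner of BRCA1, and Palb2, the bridge to BRCA2, had log2 differences of 0.02 and 0.19. The paralog genes Rad51b, Rad51c and Xrcc2 were at −0.02, −0.08 and 0.08, none with groups apart.

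In the Fanconi anaemia pathway Fancl fell. FANCL is the ubiquitin ligase that marks FANCD2 and FANCI at a crosslink, and Fancl (ENSMUSG00000004018) stood at 24.4, 24.84 and 22.16 TPM with the fusion, against 30.17, 37.06 and 30.99 TPM with the empty vector. Every fusion library was below every empty vector library, and the 3 fusion libraries lay close together. The log2 difference was −0.44 (SE 0.103, limma adjusted p = 0.0298), and −0.60 (adjusted p = 0.00407) after removal of the GC and length trend. Fancl kept its call without TPR-FGFR1 replicate 3 (0.0209) and lost it without any other library (0.0698 to 0.105). Its exons share 13.7% of their bases with Vrk2 on the opposite strand, and without a known strand setting in counting these reads cannot be told apart. Vrk2 had a log2 difference of 0.27 (limma adjusted p = 0.2).

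The other 4 members of the pathway were not called. Fancd2 and Fanci, the pair that FANCL modifies, had log2 differences of 0.02 (95% interval −0.34 to 0.39) and 0.18 (95% interval −0.08 to 0.44). Fanca, a core complex gene, stood at 21.28, 16.76 and 31.04 TPM with the fusion, against 24.52, 23.37 and 25.87 TPM with the empty vector. Its fusion replicates lay on both sides of the empty vector range, with replicate 3 the highest of all 6 libraries. Without replicate 3 the log2 difference of Fanca was −0.36 (adjusted p = 0.0379), and over all libraries −0.13 (adjusted p = 0.652). With the GC and length trend removed as well as replicate 3 it was −0.08 (adjusted p = 0.524). Exons of Fanca share 10.5% of their bases with Zfp276, and those of Fanci 16.0% with Polg, both on the opposite strand. Fancm, the gene of a fork-remodelling translocase, was the most variable member, with 15.66, 21.7 and 10.95 TPM with the fusion and 11.76, 15.96 and 16.76 TPM with the empty vector (log2 difference 0.08, SE 0.243).

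Among the 3 mismatch repair members, Pms2 rose. PMS2 is part of the endonuclease that acts after a mismatch is found, and Pms2 (ENSMUSG00000079109) stood at 33.45, 35.76 and 26.65 TPM with the fusion, against 22.36, 20.98 and 19.57 TPM with the empty vector. The groups did not overlap. Means were 32.0 ± 4.74 TPM with the fusion and 21.0 ± 1.4 TPM with the empty vector (SD, n = 3 each), a ratio of 1.52, with a log2 difference of 0.58 (SE 0.122, limma adjusted p = 0.0239). Pms2 was called in 14 of 20 settings, kept its call without TPR-FGFR1 replicate 3 (0.00153) and lost it without any other library (0.0697 to 0.0937). Exons of Pms2 share 4.85% of their bases with Gm42421 and 1.05% with Rsph10b, both on the same strand. These genes had log2 differences of 0.55 (limma adjusted p = 0.0564) and 0.38 (limma adjusted p = 0.131). Msh6 and Msh3 encode mismatch sensors, for small and for larger mismatches. Msh6 stood at 48.48, 45.98 and 40.73 TPM with the fusion, against 35.17, 38.06 and 38.84 TPM with the empty vector. Its groups were apart but the log2 difference of 0.26 did not pass the test (limma adjusted p = 0.0821). It was called after removal of the GC and length trend (0.22, adjusted p = 0.0182) and without TPR-FGFR1 replicate 3 (0.33, adjusted p = 0.00832). Msh3 was at −0.04 (limma adjusted p = 0.87).

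End joining had 0 of 5 members called, against 20.2% of all tested genes in either direction. Xrcc6 and Xrcc5 encode KU70 and KU80, the ring that caps broken ends, Prkdc the kinase DNA-PKcs that it recruits, Lig4 the ligase, and Trp53bp1 the protein 53BP1, which shields ends from resection. Prkdc stood at 16.57, 17.43 and 14.35 TPM with the fusion, against 13.48, 13.8 and 14.13 TPM with the empty vector. The groups were apart by a narrow gap, and the log2 difference of 0.21 (95% interval −0.02 to 0.43) was not called (limma adjusted p = 0.152) and was 0.01 after removal of the GC and length trend. Xrcc6 stood at 102.66, 78.41 and 70.71 TPM with the fusion, against 60, 62.6 and 75.86 TPM with the empty vector. Replicate 3 was inside the empty vector range, and the log2 difference was 0.33 (limma adjusted p = 0.163). Without replicate 3 it was 0.44 (adjusted p = 0.0529), and with the GC and length trend removed 0.485 (adjusted p = 0.079). With both steps Xrcc6 was called higher, at 0.66 (adjusted p = 0.012). Xrcc5, Lig4 and Trp53bp1 had log2 differences of −0.04, 0.17 and −0.04 with overlapping groups. With the GC and length trend removed and replicate 3 left out Trp53bp1 was called lower, at −0.28 (adjusted p = 0.0259). Exons of Trp53bp1 share 15.0% of their bases with Tubgcp4 on the opposite strand.

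Of the 3 genes of single-strand break repair, Lig3 rose. PARP1 detects the break and recruits the scaffold XRCC1, which carries DNA ligase III. Lig3 (ENSMUSG00000020697) stood at 24.34, 27.74 and 23.73 TPM with the fusion, against 20.7, 18.6 and 17.26 TPM with the empty vector. The groups did not overlap, and its log2 difference was 0.40 (SE 0.101, limma adjusted p = 0.0356). Lig3 was called without TPR-FGFR1 replicate 3 (0.0136) and not without any other library (0.0701 to 0.123), and 25.1% of its exon bases are shared with Rffl on the opposite strand, which was at 0.13 (adjusted p = 0.25). With the GC and length trend removed and replicate 3 left out, Lig3 was not called (0.0732). Parp1 stood at 34.48, 32.33 and 39.87 TPM with the fusion, against 48.91, 41.54 and 45.82 TPM with the empty vector. All fusion libraries were lower, with a log2 difference of −0.35 (95% interval −0.60 to −0.10, limma adjusted p = 0.0588), and −0.43 (adjusted p = 0.00805) without TPR-FGFR1 replicate 3. After removal of the GC and length trend Parp1 was at −0.22 (adjusted p = 0.0833), and at −0.26 (adjusted p = 0.0724) with replicate 3 left out as well. Xrcc1 stood at 10.09, 9.93 and 16.7 TPM with the fusion, against 17.33, 15.6 and 16.25 TPM with the empty vector. Replicates 1 and 2 were far below the empty vector range and replicate 3 was inside it. The log2 difference of Xrcc1 was −0.43 over all libraries (limma adjusted p = 0.141), −0.66 (adjusted p = 0.00149) without replicate 3 and 0.01 (adjusted p = 0.93) after removal of the GC and length trend.

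TPR-FGFR1 replicates 1 and 2 were often on the same side of the empty vector libraries while replicate 3 was not. In both replicates 1 and 2, 18 of 36 members (50%, against 38.9% of all tested genes) were above every empty vector library. Replicate 3 was also above for 9 of these, within the empty vector range for 5 and below it for 4. Of the 5006 tested genes above in both replicates, replicate 3 was above for 2905, within the range for 1217 and below for 884. The members below every empty vector library in replicates 1 and 2 numbered 6 (16.7%, against 31.8% of all tested genes). In replicate 3, 4 of them (Nbn, Rad54l, Fancl and Parp1) were below as well, against 2675 of 4089 tested genes. Replicate 3 had the lowest of the 3 fusion values for 30 members (83.3%, against 51.1% of all tested genes). The median log2 difference of the members from the empty vector mean was 0.18, 0.21 and −0.02 in TPR-FGFR1 replicates 1, 2 and 3. Without replicate 3, 13 members were called higher (26.3% of all tested genes) and 5 lower (23.4%), among them Mre11a (0.34), Rbbp8 (0.23), Fanci (0.27) and Prkdc (0.28) on the higher side and Rad54l (−0.24) on the lower. With the GC and length trend removed as well, 7 were called higher (20% of genes so tested) and 5 lower (19.1%).

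Base composition varied with the same libraries. Longest transcripts of the members had a GC content of 40.8% to 59.3% with a median of 45.9%, against a median of 48.8% for 12541 tested genes, and a median length of 4708 bases against 2990. Across the 36 members, Pearson's r between GC content and the difference from the empty vector mean was −0.34, −0.47 and 0.21 in TPR-FGFR1 replicates 1, 2 and 3. Over 12541 tested genes it was −0.44, −0.51 and −0.05. Spearman's rho was −0.16, −0.30 and 0.24 for the members, and −0.53, −0.60 and −0.07 over the tested genes. These correlations are across genes of the same libraries, are not independent, and are given as a description. After a trend over GC content and length was removed from each library, 7 members were called higher (16.4% of genes so tested) and 4 lower (15.4%). The 5 called higher before remained among the 7, joined by Atr and Msh6, and Fancl was joined by Nbn, Brca1 and Rad54l. The median of the members after this step was −0.03. The part of base composition in any single difference was not tested.

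**Figure D3:**
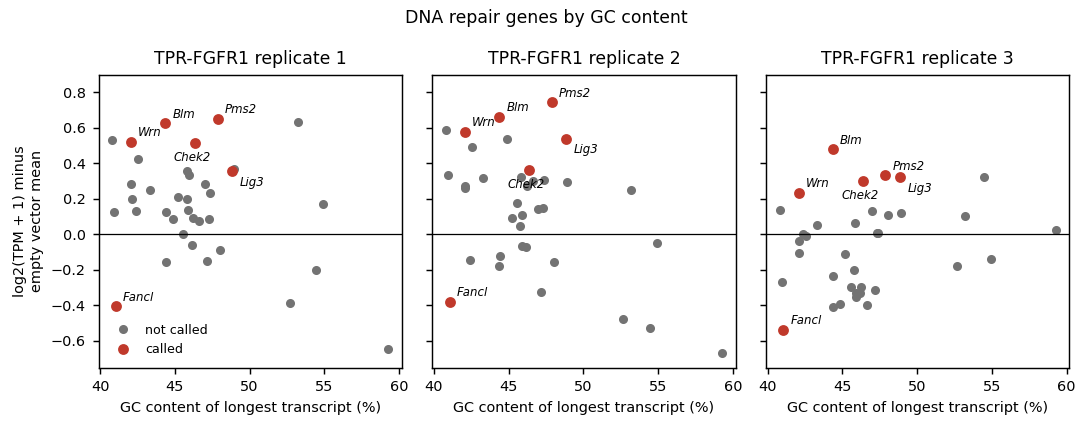
Difference of the 36 repair genes from the empty vector mean in log2(TPM + 1), plotted against the GC content of the longest transcript in percent, for TPR-FGFR1 replicates 1, 2 and 3. Each point is a gene, in red and named where called over all libraries. Points at high GC content lie mostly below 0 in replicates 1 and 2 and not in replicate 3. Pearson's r was −0.34, −0.47 and 0.21, and Spearman's rho −0.16, −0.30 and 0.24, in replicates 1, 2 and 3.

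TPM is scaled by length, so levels can be set beside each other between genes. Mean levels ran from 4.82 to 84.1 TPM with the fusion and from 4.94 to 79.3 TPM with the empty vector. Chek1, Mre11a and Xrcc6 were the 3 most abundant in both groups, and Rad51c, Rad51b and Lig4 the 3 least abundant. With the empty vector, Chek1 lay above Mre11a in every library, while Mre11a and Xrcc6 overlapped, as did Rad51c, Rad51b and Lig4. With the fusion Chek1, Mre11a and Xrcc6 all overlapped, at means of 84.1, 81.7 and 83.9 TPM. The order of levels was much alike in both groups (Spearman's rho 0.963 across 36 genes, as a description). Pms2 ranked 12 with the fusion and 16 with the empty vector, and Parp1 ranked 9 with the fusion and 4 with the empty vector.

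Ratios of partners within a complex give a measure that is free of a library's total, though not of a trend over GC content and length. The ratios were chosen after their values had been seen. The Blm to Top3a ratio, of the helicase and the topoisomerase that dissolves joined chromosomes with it, was 7.003, 7.29 and 5.67 with the fusion, against 3.08, 3.08 and 2.97 with the empty vector. Every fusion library was well above. Ube2t encodes the ubiquitin-conjugating enzyme that works with FANCL, and its ratio to Fancl averaged 1.73 ± 0.122 with the fusion and 0.841 ± 0.12 with the empty vector (SD, n = 3 each). For Lig3 to Xrcc1 the ratio was 2.41, 2.79 and 1.42 with the fusion, against 1.19, 1.19 and 1.06 with the empty vector. Replicate 3 was again the nearest to the empty vector. The Atr to Atrip ratio averaged 3.02 ± 0.417 with the fusion and 2.22 ± 0.122 with the empty vector (SD, n = 3 each). After removal of the GC and length trend, however, Atr and Atrip had like log2 differences, 0.21 and 0.22. Those of Lig3 and Xrcc1 were then 0.34 and 0.01, and those of Blm and Top3a 0.44 and −0.31. Ube2t and Fancl were then at 0.44 and −0.60. For Mre11a to Rad50 it was 2.38 ± 0.0754 with the fusion and 2.10 ± 0.259 with the empty vector (SD, n = 3 each), with overlapping groups. These ratios are given as a description, since many hold a gene that was itself called. Xrcc6 transcripts exceeded those of their obligate partner Xrcc5 by 7.08 ± 1.39 times with the fusion and 5.39 ± 0.458 times with the empty vector (SD, n = 3 each). The groups of this ratio overlapped. After removal of the GC and length trend Xrcc6 and Xrcc5 had log2 differences of 0.485 and −0.15, neither called.

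A wider list of 133 other repair genes, of which 132 were found and 128 passed the filter, gave 11 called higher and 17 lower, in shares again near those of all tested genes (10.2% and 10%). Other genes of homologous recombination had 2 called higher and 7 lower of 29. Smc5, which encodes a core subunit of the SMC5/6 complex, rose to 305 ± 47.2 TPM with the fusion, against 168 ± 3.91 TPM with the empty vector (SD, n = 3 each, log2 difference 0.84, limma adjusted p = 0.00982). Babam1, a subunit gene of the BRCA1-A complex, fell to 33.8 ± 10.4 TPM with the fusion, against 68.0 ± 3.99 TPM with the empty vector (log2 difference −1.03, limma adjusted p = 0.018). Top3a was also called lower, at −0.48 (limma adjusted p = 0.0199) and −0.31 after removal of the GC and length trend, and was named after its values were seen. Among 14 other Fanconi genes 1 was called higher and 1 lower. Ube2t stood at 41.7, 40.17 and 41.18 TPM with the fusion, against 28.52, 26.29 and 26.93 TPM with the empty vector, with tight and separate groups (log2 difference 0.57, limma adjusted p = 0.00765). Faap100, a core complex gene, fell by 0.88 on the log2 scale at a low level, 1.07 ± 0.37 TPM with the fusion and 2.78 ± 0.48 TPM with the empty vector, and was at −0.37 after removal of the GC and length trend (adjusted p = 0.0832).

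Of 17 other checkpoint and chromatin genes, 1 was called higher and 3 lower. H2afx, the gene of the histone variant phosphorylated around breaks, fell to 3.38, 3.93 and 4.89 TPM with the fusion, against 11.19, 11.25 and 10.9 TPM with the empty vector (log2 difference −1.27, limma adjusted p = 0.00651). Its transcript has 62.3% GC, and the difference was −0.72 (adjusted p = 0.012) after removal of the GC and length trend. The fork protection gene Timeless fell by 0.82 on the log2 scale (limma adjusted p = 0.00847). The gene called higher, named after its values were seen, was Mdc1, which encodes a reader of the phosphorylated histone, at 0.41 (limma adjusted p = 0.0323). In base excision and single-strand break repair 1 was called higher and 3 lower of 21. Apex1, the gene of the main abasic-site endonuclease, fell to 44.3 ± 2.32 TPM with the fusion, against 73.5 ± 3.27 TPM with the empty vector (SD, n = 3 each, limma adjusted p = 0.00651), but 61.7% of its exon bases are shared with Pip4p1 on the opposite strand. Ung, the uracil glycosylase gene, fell by 0.63 on the log2 scale (limma adjusted p = 0.0182). The gene called higher there, also named after its values were seen, was Tdp1, which encodes a phosphodiesterase that clears trapped topoisomerase, at 0.27 (limma adjusted p = 0.0481).

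Nucleotide excision repair, which removes bulky lesions, had 3 called higher and 2 lower of 19. Ddb2, a damage-recognition gene, rose to 22.7 ± 1.31 TPM with the fusion, against 15.3 ± 1.15 TPM with the empty vector (SD, n = 3 each, limma adjusted p = 0.0132), and 23.8% of its exon bases are shared with Acp2 on the opposite strand. Rad23b, whose product stabilises the lesion sensor XPC, fell by 0.44 on the log2 scale (limma adjusted p = 0.0162). In translesion synthesis and direct reversal 2 were called higher and 0 lower of 11, with Polk, a lesion-bypass polymerase gene, at 0.40 (limma adjusted p = 0.0412) and Hltf at 0.34 (adjusted p = 0.0444). After removal of the GC and length trend Polk was at 0.23 (adjusted p = 0.0102) and Hltf was not called, at 0.15 (adjusted p = 0.0754). Aplf, an end-joining scaffold gene, was the 1 called of 12 other end joining genes, at 0.46 (limma adjusted p = 0.0272). Msh5, known for its part in meiosis, was the 1 called of 5 other mismatch repair genes, at −0.60 (limma adjusted p = 0.035), and at −0.33 after removal of the GC and length trend (adjusted p = 0.123). Of the 14 other repair genes named by rule, Apex1 and H2afx were called in all 20 alternative settings. Timeless and Ube2t lost their call without empty vector replicate 2, and the other 10 without at least 1 library other than TPR-FGFR1 replicate 3.

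**Figure D4:**
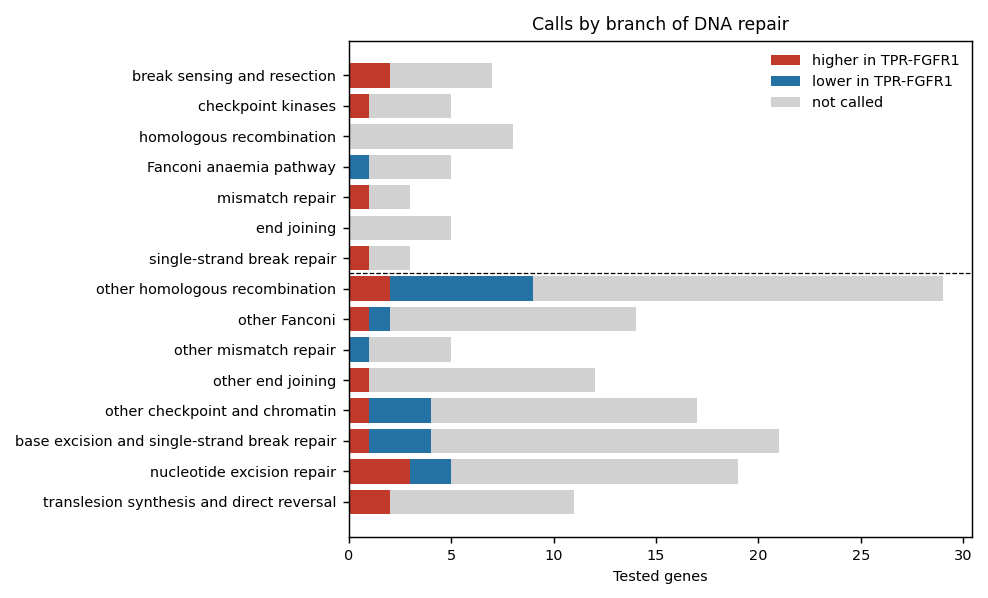
Number of tested genes in each branch of DNA repair that were called higher in TPR-FGFR1 libraries (red), called lower (blue) or not called (grey) in limma over all libraries. The 7 branches above the dashed line hold the 36 members, with 5 higher and 1 lower, and those below it 128 other repair genes, with 11 higher and 17 lower.

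Cell cycle genes were also measured, and their calls stand against 10.2% of all tested genes called higher and 10% lower. Of 18 genes of the DNA synthesis (S) phase 10 were called lower and 0 higher. Their summed level was 1111 to 1188 TPM with the fusion and 1304 to 1421 TPM with the empty vector. After removal of the GC and length trend 12 were called lower and 0 higher (15.4% and 16.4% of genes so tested). Pcna, the sliding clamp gene, stood at 291 TPM with the fusion and 351 TPM with the empty vector (log2 difference −0.27, limma adjusted p = 0.0495), and was at −0.40 after removal of the GC and length trend. Of 16 mitotic genes 3 were called higher and 0 lower, and 4 higher and 1 lower after removal of that trend. Among the 3 was Mki67, at 0.42 (limma adjusted p = 0.0452) and 0.27 after that removal. The mitotic list summed to 1016 to 1213 TPM with the fusion and 988 to 1032 TPM with the empty vector. Of 12 tested p53 targets induced by DNA damage 1 was called higher and 5 lower. After removal of the GC and length trend 3 were called higher and 6 lower (16.4% and 15.4% of genes so tested). Cdkn1a, the classic target, named after its values were seen, had a log2 difference of −0.24 (limma adjusted p = 0.113). With the trend removed Cdkn1a was at −0.04 (adjusted p = 0.622). The part of cell cycle phase in the repair gene values was not tested.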

How the data were processed

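Libraries were prepared with a stranded mRNA kit from 1 µg of input RNA, per the labels' protocols. The submitters' processing notes name fastp, HISAT2, StringTie and GRCm39. Tool versions, gene models and the strand option were not given in the sources used here. The authors deposited TPM per gene, scaled to the same total in each library, so depth is unknown and no counting interval was computed. Symbols, transcript GC content and length came from GENCODE M21 (GRCm38), matched by gene ID, and 91.4% of IDs had a symbol. The scale was log2(TPM + 1). Of all genes, 12862 had a mean of 1 TPM or more and were tested with limma 3.58.1 in R 4.3.3 (lmFit, eBayes with trend, group as the only term) and Benjamini-Hochberg adjustment over all tested genes. On simulated data the pipeline recovered 44.8% of 67 genes changed by 1.5-fold, 76.1% at 2-fold and 98.5% at 4-fold. A difference of 1.5-fold was thus often missed, and 2 members were higher and 0 lower by that much. The simulated spread was independent between genes and held no trend over GC content. Members and lists were chosen with earlier results of these data known. Named genes are all 36 members and, of the other repair genes, the 2 called genes of smallest adjusted p in each branch, with Fgfr1, Tpr, Mki67 and Pcna. GC and length trends were removed with splines of 4 degrees of freedom on the 12541 tested genes with a transcript. Alternatives were other pseudocounts, filters, scalings and variance models, library weights, a block for the replicate number, and fits that dropped 1 library at a time. A fit of protein-coding genes alone was chosen after seeing the data. No group held more than 3 libraries, so no test for a single outlying library was made. Some genes of the lists are counted but not reported here by name.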

Additional observations from a re-analysis of the deposited data

How the results depend on the processing

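Over 20 alternatives, with 719 values of single members recomputed, 623 kept their side of the threshold. In 49 a member not called before became called in the same direction, in 43 a call was lost, and 4 values were called in the opposite direction. The last were Atrip (0.14), Rad51b (0.30) and Msh3 (0.14) with arrayWeights, and Atrip (0.38) with the GC and length trend removed and TPR-FGFR1 replicate 3 left out. In 74 of the 623 the sign changed without a call in either fit. Members called higher numbered 5 and members called lower 1 over all libraries. They numbered 1 and 0 with no filter on low values (2.37% and 2.01% of all genes tested), 20 and 5 with arrayWeights (39.9% and 32.2%), whose iterations stopped before convergence with a weight of 13.2 on TPR-FGFR1 replicate 1, and 3 higher without the eBayes trend (9.01%). Called lower were 2 with a mean of at least 5 TPM (13.2%), 2 with protein-coding genes alone (14.7%), 4 with the GC and length trend removed (15.4%), and 5 with that trend removed and TPR-FGFR1 replicate 3 left out (19.1%). Dropping 1 library at a time (leave-one-out) gave 0 to 13 members higher and 0 to 5 lower, with 13 and 5 without TPR-FGFR1 replicate 3 (26.3% and 23.4%). Without any 1 of the other libraries 1.71% to 6.77% of all genes were called in either direction, against 20.2% with all libraries, so counts of members moved with those of all genes. Other repair genes called higher and lower were 11 and 17 over all libraries, 4 and 6 with no filter, 45 and 46 with arrayWeights, 7 higher without the eBayes trend, 19 and 31 with the trend removed and TPR-FGFR1 replicate 3 left out, and 0 to 34 and 2 to 35 with 1 library dropped. The cause of these shifts was not tested.

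With the replicate number as a block, 2 members were higher and 0 lower (2.67% and 3.27% of all genes tested), and 2 other repair genes higher and 8 lower, and with the block and the GC and length trend removed 2 members were higher and 4 lower (9.81% and 9.11%). Same-numbered libraries did not deviate together (r = −0.19, −0.08 and −0.15 for replicates 1, 2 and 3 over 12862 genes). Deviations within a group sum to 0, so these values are not independent and cannot exclude pairing. The fit over all libraries used the numbers as names only.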
